A study of Mus musculus with 6 samples.

Results

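The Krüppel-like factors (KLFs) are a family of zinc finger transcription factors, and 10 of them, Klf1, Klf2, Klf3, Klf4, Klf5, Klf6, Klf7, Klf9, Klf10 and Klf13, were followed here across 6 arrays of mouse granulocyte/macrophage progenitors. The members were taken by gene symbol: of the 45037 probe sets on the array, 34 carried the symbol of 1 of these 10 genes, out of 18193 genes named by the array's annotation. Klf3 and Klf9 had 7 probe sets each, Klf6 had 5, Klf7 had 4, Klf5 and Klf13 had 3 each, Klf4 had 2, and Klf1, Klf2 and Klf10 had 1 each. A probe set is a group of short probes on the array that are read together as a measure of 1 transcript, and its value is given here as an intensity on a linear scale.

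Granulocyte/macrophage progenitors (GMPs) are bone marrow cells that give rise to neutrophils and monocytes. They were sorted from bone marrow as Lin-, IL-7R-, Sca1-, Kit+, CD34+ and Fc gamma receptor II/III high cells. The donors were IRF4/8 DKO mice, which lack both transcription factors IRF4 and IRF8, IRF8 KO mice, which lack IRF8 alone, and wild-type (WT) mice, all of strain BL6, with 2 arrays per genotype and 1 mouse behind each array per the labels. IRF4/8 DKO replicate 1 was a male and replicate 2 a female, both 16 weeks old. IRF8 KO replicate 1 was a female of 12 weeks and replicate 2 a male of 22 weeks. WT replicate 1 was a male of 12 weeks and replicate 2 a female of 19 weeks. The labels do not say how the alleles were made, so whether a probe set lies in the deleted part of Irf4 or Irf8 is not known here.

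KLFs bind GC-rich and CACCC-containing DNA through zinc fingers at the end of the protein, and their other parts recruit activators or repressors. KLF1 drives red cell genes, KLF3 is a repressor that works with CtBP and competes for the same sites, KLF2 holds T cells and monocytes in a resting state, and KLF4 takes part in the differentiation of monocytes. IRF8 has been reported to induce Klf4 in monocyte precursors, which is the reason the family is of interest in IRF8-deficient progenitors. KLF6 and KLF10 are linked to TGF-beta signalling, KLF9 responds to glucocorticoids, KLF5 promotes proliferation in epithelia, KLF13 activates the chemokine gene Ccl5 in T cells, and KLF7 is a more widely expressed relative.

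The promoter windows of the 5 members whose values differed most between the genotypes are shown to let a reader see which letters lie upstream of them. Each runs from 250 bases before to 50 bases after the annotated start, in RefSeq's mouse assembly GRCm38.p6, 5′ to 3′ on the strand of the gene. Klf4 lies at chr4:55527137-55532475 and its window at chr4:55532426-55532725 on the minus strand. Klf2 lies at chr8:72319062-72321654 with its window at chr8:72318812-72319111 on the plus strand, and Klf3 at chr5:64803521-64832901 with its window at chr5:64803271-64803570 on the plus strand. Klf7 lies at chr1:64029448-64122345 with its window at chr1:64121340-64121639 on the minus strand, inside the annotated gene, and Klf13 at chr7:63886351-63938915 with its window at chr7:63938866-63939165 on the minus strand. Capitals mark CACCC boxes (CACCC) and GC boxes (CCGCCC) on either strand, which may overlap, and in Klf2 also the match to the MEF2 motif.
Klf4: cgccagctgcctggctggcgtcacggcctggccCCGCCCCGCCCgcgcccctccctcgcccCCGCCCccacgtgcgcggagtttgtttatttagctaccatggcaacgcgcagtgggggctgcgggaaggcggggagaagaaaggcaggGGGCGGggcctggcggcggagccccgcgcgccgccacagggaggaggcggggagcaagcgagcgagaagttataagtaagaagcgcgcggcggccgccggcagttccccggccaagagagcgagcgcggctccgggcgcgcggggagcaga
Klf2: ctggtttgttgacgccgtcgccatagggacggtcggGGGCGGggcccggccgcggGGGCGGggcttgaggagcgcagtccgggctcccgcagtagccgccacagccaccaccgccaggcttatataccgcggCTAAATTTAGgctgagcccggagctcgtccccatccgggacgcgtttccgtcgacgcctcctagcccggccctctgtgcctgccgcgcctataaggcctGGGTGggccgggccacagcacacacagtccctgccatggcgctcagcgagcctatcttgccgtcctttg
Klf3: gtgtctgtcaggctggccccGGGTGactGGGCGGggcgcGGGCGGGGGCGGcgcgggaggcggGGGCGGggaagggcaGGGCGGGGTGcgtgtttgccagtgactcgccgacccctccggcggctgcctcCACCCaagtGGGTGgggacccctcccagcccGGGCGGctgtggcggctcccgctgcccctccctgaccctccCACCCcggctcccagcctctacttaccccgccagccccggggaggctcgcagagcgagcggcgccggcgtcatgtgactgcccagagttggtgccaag
Klf7: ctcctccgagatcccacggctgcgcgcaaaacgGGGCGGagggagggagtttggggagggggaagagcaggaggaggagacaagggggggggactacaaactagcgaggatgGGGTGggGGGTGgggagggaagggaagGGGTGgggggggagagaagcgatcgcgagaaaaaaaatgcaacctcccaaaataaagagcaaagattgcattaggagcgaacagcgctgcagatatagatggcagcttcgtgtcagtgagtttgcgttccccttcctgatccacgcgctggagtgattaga
Klf13: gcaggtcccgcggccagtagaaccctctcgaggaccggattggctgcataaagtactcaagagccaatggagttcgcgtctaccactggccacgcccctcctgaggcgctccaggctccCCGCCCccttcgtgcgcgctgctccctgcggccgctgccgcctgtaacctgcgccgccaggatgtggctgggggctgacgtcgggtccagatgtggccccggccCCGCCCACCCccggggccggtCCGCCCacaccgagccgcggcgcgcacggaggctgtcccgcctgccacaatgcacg

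Windows were at hand for 8 of the 10 genes. The Klf4 window held 4 GC boxes and no CACCC box, and 74.3% of its bases were G or C, against a median of 52.7% over all 32851 windows. The Klf3 window held 6 GC boxes and 5 CACCC boxes, the Klf7 window 1 and 3, the Klf13 window 3 and 1, and the Klf2 window 2 and 1. A GC box was present in 6 of the 8 member windows and in 35.7% of all windows, and a CACCC box in 6 of 8 and in 57.5% of all windows. At least 5 GC boxes stood in 2.71% of all windows, and at least 3 CACCC boxes in 9.35%. The IRF repeat, GAAA followed after any 2 bases by another GAAA, was in 0 of 8 member windows and 3.44% of all windows, and the composite of an Ets site and an IRF site, GGAA followed after any 2 bases by GAAA, in 0 of 8 and 2.72%. The MEF2 motif was found in 1 member window, that of Klf2, 118 bases before the start, and in 3.19% of all windows. CCAAT was in 4 of the 8 and 37.4% of all windows, while TATAAA was in 0 and 13.6% and the GATA motif AGATAA in 0 and 11.2%. All motifs were searched on both strands, and such matches describe these letters and this stretch only.

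Of the 34 probe sets, 29 passed the filter on low values, which asked for a value above the 40th percentile of the array on at least 2 arrays. Each of the 10 genes kept at least 1 probe set. The 5 left out were 3 of Klf3, 1 of Klf5 and 1 of Klf9, with intensities of 1 to 28.55. The arrays as a whole had median intensities of 34.1 to 37.5 in IRF4/8 DKO, 38.4 to 38.6 in IRF8 KO and 41.7 to 45.3 in WT. Across the kept probe sets the arrays of a genotype correlated at 0.952 in IRF4/8 DKO, 0.912 in IRF8 KO and 0.968 in WT, and IRF4/8 DKO replicate 1 correlated at 0.960 with WT replicate 2, above its value with its own genotype. The IRF8 KO arrays were the least alike. Kit, a gene of the sort, had 2426 and 1998 in IRF4/8 DKO, 1824 and 2328 in IRF8 KO, and 2170 and 1680 in WT. The granule genes Mpo and Elane, which are not part of the sort, were between 7434 and 15420 on every array. Cd34, the stem and progenitor marker of the gate, had 590 and 509 in IRF4/8 DKO, 440 and 669 in IRF8 KO, and 1747 and 1401 in WT (log2 fold change −1.50 in both knockout genotypes against WT, limma adjusted p = 0.0998). Fcgr3, an Fc gamma receptor gene of the gate, was higher in the knockouts. Its log2 fold change was 1.70 in IRF4/8 DKO, 1.79 in IRF8 KO and 1.75 in both against WT (limma adjusted p = 0.271, 0.177 and 0.129).

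Neither probe set of Irf8 was low in the knockouts. The Irf8 probe set 1416714_at had 2611 and 4778 in IRF4/8 DKO, 3811 and 2602 in IRF8 KO, and 2588 and 3052 in WT, and 1448452_at had 934 and 1900 in IRF4/8 DKO, 1333 and 1131 in IRF8 KO, and 507 and 704 in WT. The Irf4 probe set 1421173_at had 66.0 and 54.6 in IRF4/8 DKO, 13.8 and 7.66 in IRF8 KO, and 32.1 and 23.4 in WT, and the other, 1421174_at, lay between 11.8 and 33.1 on all arrays. No Irf4 or Irf8 probe set passed the threshold in any comparison. Since their position relative to the deleted parts is not known, these values do not check the labels.

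The 4 comparisons were made with limma on log2(intensity + 10.5), over all 6 arrays, with Benjamini-Hochberg adjustment over the 29783 kept probe sets and a threshold of 0.05: IRF4/8 DKO against WT, IRF8 KO against WT, IRF4/8 DKO against IRF8 KO, and both knockout genotypes together against WT. A fold change is on this scale, which understates the change of dim probe sets, and errors are standard errors (SE) of the fit. The comparisons against WT share the 2 WT arrays. The p-values measure the spread between these 6 mice only.

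Among the representative probe sets Klf4 had the largest difference from WT, and its second probe set was the 1 of 29 that passed the threshold. In both knockout genotypes against WT, 1 of 29 member probe sets was called, against 0.601% of all kept probe sets. In the comparison of IRF4/8 DKO with WT, 0 of 29 were called against a background of 0.299%, in IRF8 KO against WT 0 of 29 against 0.0302%, and in IRF4/8 DKO against IRF8 KO 0 of 29 against 0%. At an unadjusted limma p under 0.05 the members numbered 7 of 29 (24.1%) in both knockout genotypes against WT, where 11.6% of all probe sets lay. The same counts were 5 of 29 (17.2%) in IRF4/8 DKO against WT with a background of 9.05%, 7 of 29 (24.1%) in IRF8 KO against WT with 13.5%, and 3 of 29 (10.3%) in IRF4/8 DKO against IRF8 KO with 8.52%. Several of these probe sets read the same gene, so they are not independent of each other. The same shares of all probe sets are the background for the unadjusted counts of the gene lists further on.

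Read by direction, 19 of the 29 were higher and 10 lower in IRF4/8 DKO than in WT, with a median log2 fold change of 0.15, and 21 were higher and 8 lower in IRF8 KO than in WT, with a median of 0.39. The medians over all kept probe sets were −0.0403 and −0.0565. Median centring of the arrays moved these medians of all probe sets to 0.181 and 0.0824, and the members then split as 25 higher and 4 lower in IRF4/8 DKO and 22 and 7 in IRF8 KO, with medians of 0.38 and 0.53. The arrays of both groups did not overlap for 15 of the members in IRF4/8 DKO against WT (51.7%, against 43.6% of all probe sets) and for 14 in IRF8 KO against WT (48.3%, against 45.7%). For IRF4/8 DKO against IRF8 KO the number was 10 (34.5%, against 36.6%). These shares lie near those of all probe sets. With both knockout genotypes set against WT, 7 members were higher and 2 lower on all 4 knockout arrays, which is 31.0% against 21% of all probe sets (8.51% higher and 12.5% lower).

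**Figure D1:**
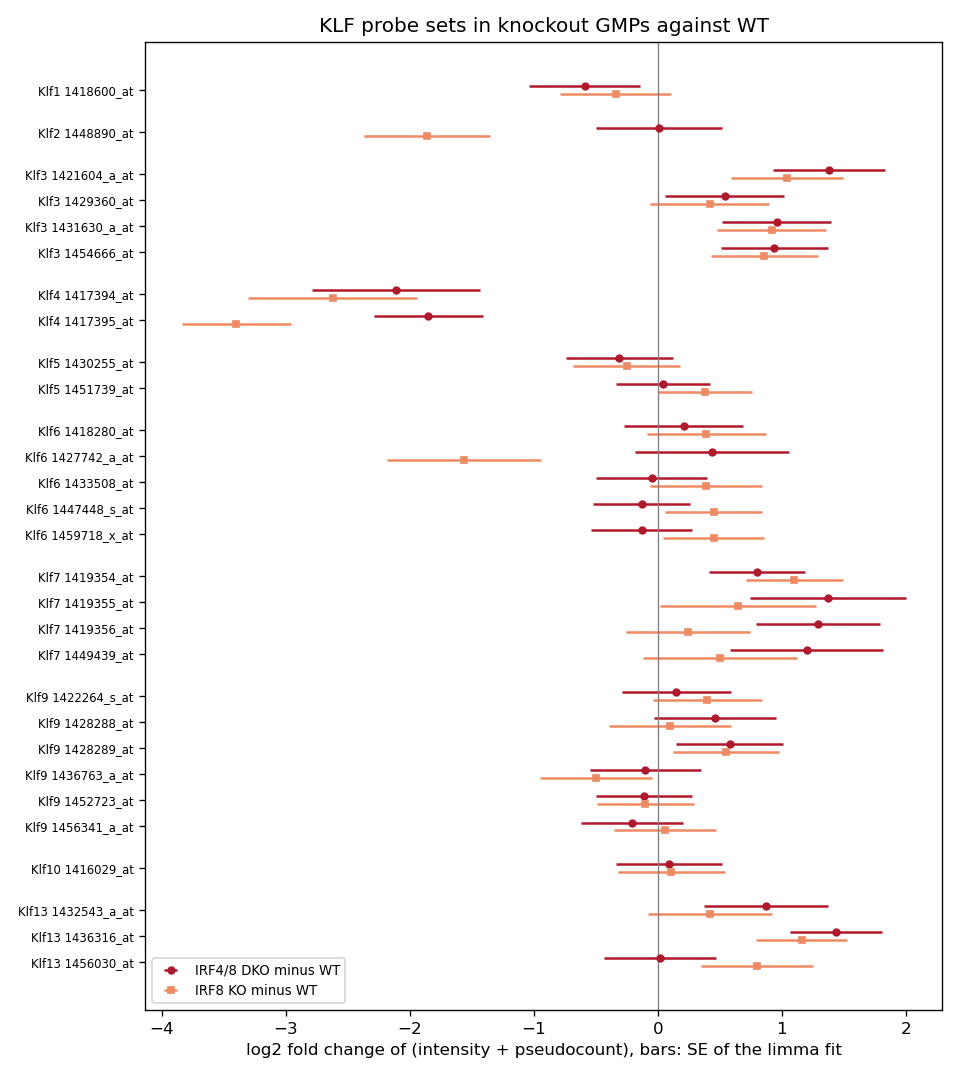
Log2 fold changes against WT of the 29 kept KLF probe sets, with the SE of the limma fit as bars. Circles stand for IRF4/8 DKO minus WT and squares for IRF8 KO minus WT. Both Klf4 probe sets lie left of −1.8 in both genotypes, Klf2 lies at −1.86 in IRF8 KO and 0.01 in IRF4/8 DKO, and the 4 Klf7 and 4 Klf3 probe sets all lie right of 0.

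Both Klf4 probe sets were lower on all 4 knockout arrays than on both WT arrays. The second probe set, 1417395_at, had 55.6 and 24.4 in IRF4/8 DKO, 4.89 and 6.87 in IRF8 KO, and 140 and 188 in WT. The genotypes did not overlap: the WT arrays were highest, the IRF4/8 DKO arrays came next and the IRF8 KO arrays were lowest, below the 40th percentile of their own arrays, which was 22.7 and 22.2. In both knockout genotypes together this probe set fell by 2.62 ± 0.38 on the log2 scale, a 6.16-fold lower level, with a limma adjusted p of 0.0325, and it ranked 71st of 29783 probe sets by p. The call did not hold without either WT array (adjusted p = 0.489 without replicate 1 and 0.278 without replicate 2) or without either IRF4/8 DKO array (0.0675 and 0.152), and it was also lost with sex as a block (0.0855), with no filter (0.0585) and with no variance trend (0.051). The log2 difference stayed between −2.85 and −2.39 in the 4 fits with an array left out.

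In IRF8 KO against WT the same Klf4 probe set differed by −3.40 ± 0.44 on the log2 scale, 10.6-fold lower, and ranked 18th of all probe sets by p, with a limma adjusted p of 0.0509. Because both IRF8 KO values lie below the pseudocount, the size of this fold depends on it: with a pseudocount of 3.9 the difference was −4.09 (limma adjusted p = 0.0461). In IRF4/8 DKO against WT it differed by −1.85 ± 0.44 (adjusted p = 0.176). Between the knockouts it was 1.55 ± 0.44 higher in IRF4/8 DKO than in IRF8 KO, with an unadjusted limma p of 0.0067 and an adjusted p of 0.537.

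The brighter Klf4 probe set by mean, 1417394_at, had 91.5 and 61.8 in IRF4/8 DKO, 118 and 17.8 in IRF8 KO, and 280 and 460 in WT. Both WT arrays were above all 4 knockout arrays, while the 2 IRF8 KO arrays lay on either side of the IRF4/8 DKO arrays. The log2 difference was −2.11 ± 0.68 in IRF4/8 DKO against WT (limma adjusted p = 0.359) and −2.62 ± 0.68 in IRF8 KO against WT (adjusted p = 0.173). The second value was −3.71 (limma adjusted p = 0.00759) when the first IRF8 KO array was left out and −1.53 (0.184) when the other was. The first passed the threshold in a fit of IRF4/8 DKO and WT alone (adjusted p = 0.039) and without either IRF8 KO array (0.0361 and 0.0383). In both knockout genotypes together it was −2.36 ± 0.59, 5.14-fold lower, with a limma adjusted p of 0.143. The 2 IRF8 KO arrays, at 118 and 17.8, lay far apart. Dropping the array at 118 moved this last difference to −2.91, and dropping the array at 17.8 moved it to −1.82. The SE fell to 0.39 and 0.4 in turn. Either fit keeps 1 array of that genotype, so the spread cannot be assigned to one of the pair. The probe sets of Klf4 correlated at 0.82 over the 6 arrays, and they differ on IRF8 KO replicate 1, which lay above both IRF4/8 DKO arrays for one and was the lowest of the 6 arrays for the other. In bulk samples such as these, fewer cells that express a gene and less of its RNA in each cell cannot be told apart.

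**Figure D2:**
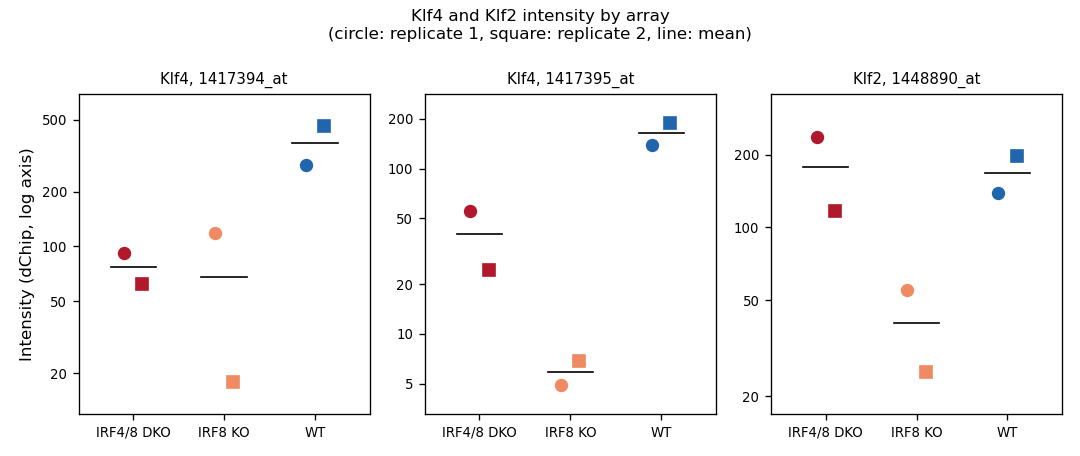
Intensities (dChip values, log axis) of the 2 Klf4 probe sets and of Klf2 on each array, with IRF4/8 DKO, IRF8 KO and WT from left to right. Circles are replicate 1, squares replicate 2 and lines the mean of a genotype. Both WT arrays lie above all 4 knockout arrays for each Klf4 probe set, and for Klf2 both IRF8 KO arrays, at 54.9 and 25.3, lie below all others.

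In a list of reported KLF4 targets and monocyte genes, those that passed the threshold were higher in the knockouts. Ly86, from a separate list of monocyte and macrophage markers, was called lower and is given below. Of 15 listed genes 13 were on the array and 10 passed the filter. Among these 10, 4 rose and 0 fell in IRF4/8 DKO against WT, 0 were called in IRF8 KO against WT (5 had an unadjusted limma p under 0.05, all higher), and 3 rose in both knockout genotypes against WT. In each comparison against WT 8 of the 10 had positive and 2 negative differences, the 2 being the Fc receptor gene Fcgr1 (−0.76 in both knockout genotypes, limma adjusted p = 0.584) and the nuclear receptor gene Nr4a1 (−0.24, adjusted p = 0.863). The median log2 fold changes of the 10 were 1.49, 0.962 and 1.24, against medians near 0 over all probe sets. Ccr2, the receptor that lets monocytes leave the marrow, had 2856 and 3024 in IRF4/8 DKO, 2158 and 2494 in IRF8 KO, and 234 and 457 in WT. It was 3.13 ± 0.38 higher on the log2 scale in IRF4/8 DKO than in WT (limma adjusted p = 0.0285) and 2.79 ± 0.38 higher in IRF8 KO (adjusted p = 0.0509).

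Adgre1, which codes for the macrophage antigen F4/80, had 1058 and 1406 in IRF4/8 DKO, 516 and 840 in IRF8 KO, and 132 and 132 in WT, and was 3.11 ± 0.42 higher in IRF4/8 DKO than in WT (limma adjusted p = 0.0342). Mpeg1, a pore-forming protein of macrophages, had 2942 and 4156 in IRF4/8 DKO, 2704 and 2951 in IRF8 KO, and 844 and 809 in WT, and was 2.07 ± 0.29 higher in IRF4/8 DKO (adjusted p = 0.0372). Cd14, the co-receptor for bacterial lipopolysaccharide and a reported direct target of KLF4, had 84.4 and 124 in IRF4/8 DKO, 12.96 and 13.95 in IRF8 KO, and 10.3 and 9.72 in WT. The IRF4/8 DKO arrays alone stood high, 2.46 ± 0.38 above WT on the log2 scale (limma adjusted p = 0.0447) and 2.24 ± 0.38 above IRF8 KO (adjusted p = 0.427). On the WT and IRF8 KO arrays Cd14 lay below the 40th percentile, so it passed the filter through the IRF4/8 DKO arrays alone. Each of these 4 calls against WT was lost when any 1 of the IRF4/8 DKO or WT arrays was left out, with limma adjusted p-values from 0.0904 to 0.592, while the directions stayed. All 4 were also lost with no filter (0.0523 to 0.0779), with no variance trend (0.0563 to 0.0995) and with sex as a block (0.0963 to 0.128), and that of Cd14 with the pseudocount at 3.9 (0.0581) and with median centring (0.0507).

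Csf1r, the receptor for macrophage colony-stimulating factor, had 2276 and 6625 in IRF4/8 DKO, 2008 and 3061 in IRF8 KO, and 1490 and 915 in WT, and did not pass the threshold in any comparison (lowest limma adjusted p = 0.231). Ly86, a monocyte and B cell gene of the marker list rather than of the KLF4 list, went the other way, with 11 and 3.52 in IRF4/8 DKO, 4.70 and 3.22 in IRF8 KO, and 626 and 575 in WT. Its knockout values lay below the 40th percentile, so it passed the filter through the WT arrays alone. It was called in both genotypes, at −5.14 ± 0.40 in IRF4/8 DKO (limma adjusted p = 0.00781) and −5.40 ± 0.40 in IRF8 KO (adjusted p = 0.00848). Both calls were lost without either WT array (limma adjusted p of 0.0813 to 0.324), and the IRF4/8 DKO call also without either IRF4/8 DKO array (0.0829 and 0.283) and with sex as a block (0.0659). Summed over the 10 measured monocyte and macrophage markers, intensity was 9534 and 20200 in IRF4/8 DKO, 7725 and 12350 in IRF8 KO, and 3615 and 3176 in WT. Cx3cr1 did not pass the filter. The part of these markers in the Klf4 values was not tested.

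**Figure D3:**
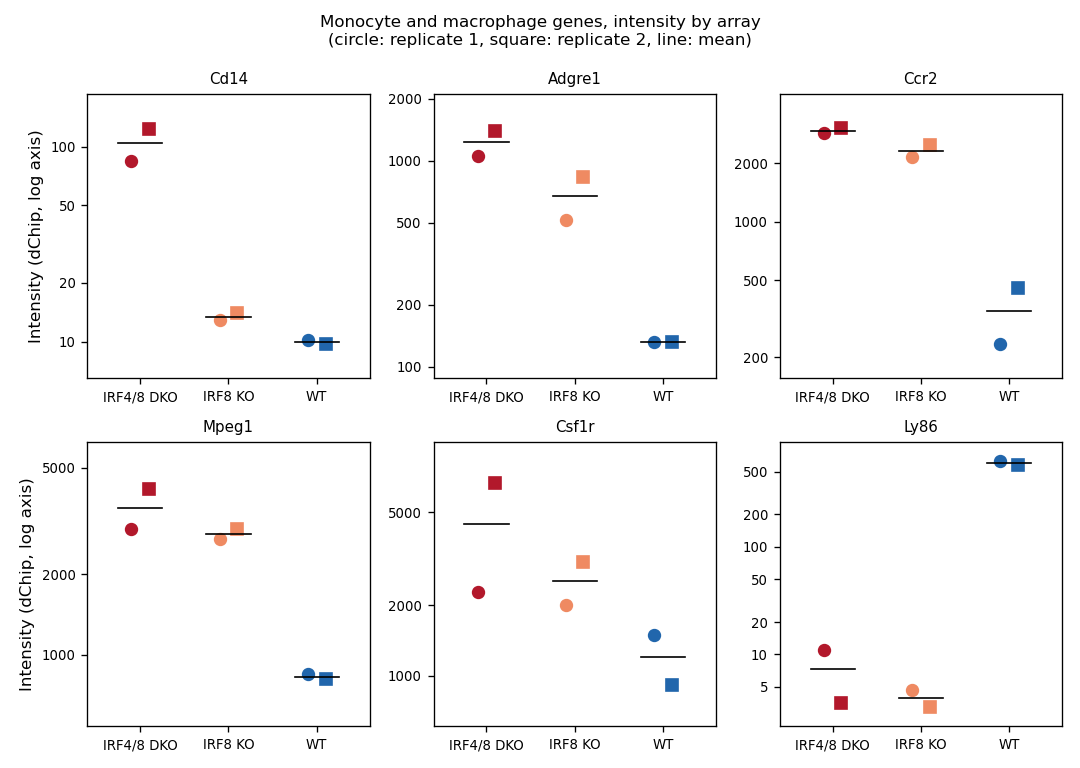
Intensities (dChip values, log axis) of 6 monocyte and macrophage genes on each array, with IRF4/8 DKO, IRF8 KO and WT from left to right and the mean of each genotype as a line. Ccr2, Adgre1 and Mpeg1 lie higher on all 4 knockout arrays than on the WT arrays, Cd14 stands high on the IRF4/8 DKO arrays, at 84.4 and 124, and Ly86 is at 575 or more on the WT arrays and at 11 or less on the others.

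Klf2 was lowest in IRF8 KO, with no comparison past the threshold. It had 237 and 117 in IRF4/8 DKO, 54.9 and 25.3 in IRF8 KO, and 139 and 197 in WT. Both IRF8 KO arrays lay below all others, and the IRF4/8 DKO arrays lay on either side of the WT arrays. The log2 difference was −1.86 ± 0.51 in IRF8 KO against WT, 3.64-fold lower, with an unadjusted limma p of 0.00558 and an adjusted p of 0.183. It was 1.88 ± 0.51 in IRF4/8 DKO against IRF8 KO, 3.67-fold higher, with an unadjusted p of 0.00538 and a limma adjusted p of 0.537. Against WT, IRF4/8 DKO differed by 0.01 ± 0.51 (adjusted p = 0.998). Without IRF8 KO replicate 1 the difference of IRF8 KO from WT was −2.30, from a fit that keeps 1 array of that genotype. Over all alternatives run this difference lay between −2.30 and −1.40.

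None of the 8 measured genes reported as KLF2 targets passed the threshold in any of the 4 comparisons, with 2 lower and 0 higher at an unadjusted limma p under 0.05 in IRF8 KO and in IRF4/8 DKO against WT. By direction, 5 were higher and 3 lower in IRF8 KO against WT, with a median log2 fold change of 0.376. In IRF4/8 DKO against WT 6 were higher and 2 lower, with a median of 0.263. In both knockout genotypes 1 was higher, Cd44, and 2 were lower at an unadjusted limma p under 0.05. The 2 lower genes, S1pr1 and Thbd, are given here. S1pr1, the sphingosine phosphate receptor that KLF2 keeps on in T cells, had 3.87 and 6.27 in IRF4/8 DKO, 10.5 and 7.91 in IRF8 KO, and 38.9 and 46.0 in WT. All 4 knockout arrays were low, and in both knockout genotypes the difference was −1.60 ± 0.31 (limma adjusted p = 0.0696). S1pr1 lay below the 40th percentile on each knockout array and passed the filter through the WT arrays alone. Thbd, the anticoagulant receptor thrombomodulin, had 266 and 79.3 in IRF4/8 DKO, 310 and 68.5 in IRF8 KO, and 712 and 501 in WT (adjusted p = 0.279 in both knockout genotypes). Klf2 itself was low in IRF8 KO alone, so these genes and Klf2 were not ordered alike across the genotypes.

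Of the pathway in which the kinase ERK5 and the factors of the MEF2 family switch on Klf2 and Klf4, all 10 listed genes were measured and 0 passed the threshold in any comparison. At an unadjusted limma p under 0.05, 1 was higher and 1 lower in IRF8 KO against WT, and 1 was higher in IRF4/8 DKO against WT. By direction, 7 were higher and 3 lower in IRF8 KO against WT, and 8 and 2 in IRF4/8 DKO against WT. Mef2d, a MEF2 factor, had 538 and 722 in IRF4/8 DKO, 295 and 229 in IRF8 KO, and 889 and 829 in WT. The genotypes did not overlap, with IRF8 KO lowest, IRF4/8 DKO between and WT highest. The log2 difference of Mef2d was −1.68 ± 0.39 in IRF8 KO against WT (limma adjusted p = 0.139) and 1.23 ± 0.39 in IRF4/8 DKO against IRF8 KO (adjusted p = 0.539). Map3k3, a kinase at the head of the ERK5 cascade, had 1962 and 2159 in IRF4/8 DKO, 1337 and 1707 in IRF8 KO, and 957 and 840 in WT (1.19 ± 0.31 in IRF4/8 DKO against WT, adjusted p = 0.218).

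Klf13, Klf3 and Klf7 were higher on all 4 knockout arrays than on both WT arrays in the probe set that represents each gene, the kept one with the highest mean. For Klf13 the probe set 1436316_at had 1237 and 1397 in IRF4/8 DKO, 1223 and 954 in IRF8 KO, and 591 and 386 in WT. The log2 difference was 1.44 ± 0.37 in IRF4/8 DKO against WT (limma adjusted p = 0.220), 1.16 ± 0.37 in IRF8 KO against WT (adjusted p = 0.246) and 1.30 ± 0.32 in both knockout genotypes (2.46-fold higher, adjusted p = 0.142). The unadjusted limma p in both knockout genotypes was 0.00319. The other Klf13 probe sets did not match it fully: 1432543_a_at had 206 and 375 in IRF4/8 DKO, 143 and 277 in IRF8 KO, and 159 and 136 in WT. The third, 1456030_at, had 86.0 and 136 in IRF4/8 DKO, 164 and 227 in IRF8 KO, and 130 and 87.2 in WT, so that it was high in IRF8 KO alone. The 3 pairs of Klf13 probe sets correlated at 0.35 to 0.61 over the 6 arrays.

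For Klf3, the CtBP-dependent repressor, the probe set 1454666_at had 1047 and 631 in IRF4/8 DKO, 899 and 652 in IRF8 KO, and 489 and 356 in WT. The knockouts overlapped each other and both lay above WT, at 0.94 ± 0.43 in IRF4/8 DKO (limma adjusted p = 0.567) and 0.86 ± 0.43 in IRF8 KO (adjusted p = 0.419). The probe set 1421604_a_at had 267 and 442 in IRF4/8 DKO, 236 and 309 in IRF8 KO, and 140 and 112 in WT, which is 2.32-fold higher in both knockout genotypes (adjusted p = 0.256). The probe set 1431630_a_at had 156 and 224 in IRF4/8 DKO, 147 and 227 in IRF8 KO, and 95.4 and 87.5 in WT (1.92-fold higher, adjusted p = 0.384). The fourth kept one, 1429360_at, had 156 and 176 in IRF4/8 DKO, 227 and 100 in IRF8 KO, and 114 and 107 in WT, with an overlap between IRF8 KO and WT. All 4 kept Klf3 probe sets had a positive difference in both genotypes, and none passed the threshold.

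For Klf7 the probe set 1419354_at had 823 and 965 in IRF4/8 DKO, 1064 and 1140 in IRF8 KO, and 664 and 389 in WT. IRF8 KO was highest, IRF4/8 DKO between and WT lowest, without overlap. The log2 difference was 0.80 ± 0.39 in IRF4/8 DKO against WT (limma adjusted p = 0.620), 1.10 ± 0.39 in IRF8 KO against WT (adjusted p = 0.279) and −0.30 ± 0.39 in IRF4/8 DKO against IRF8 KO (adjusted p = 0.841). The other 3 Klf7 probe sets also had positive differences in both genotypes, but their highest mean was that of IRF4/8 DKO: 1419355_at had 120 and 350 in IRF4/8 DKO, 69.9 and 205 in IRF8 KO, and 80.9 and 66.0 in WT. The probe set 1419356_at had 37.8 and 117 in IRF4/8 DKO, 29.4 and 25.7 in IRF8 KO, and 18.4 and 25.2 in WT, and 1449439_at had 61.9 and 180 in IRF4/8 DKO, 33.1 and 108 in IRF8 KO, and 33.1 and 49.4 in WT. In these 3 the second IRF4/8 DKO array was the highest of all 6, and the order of the knockouts differs from that of 1419354_at.

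**Figure D4:**
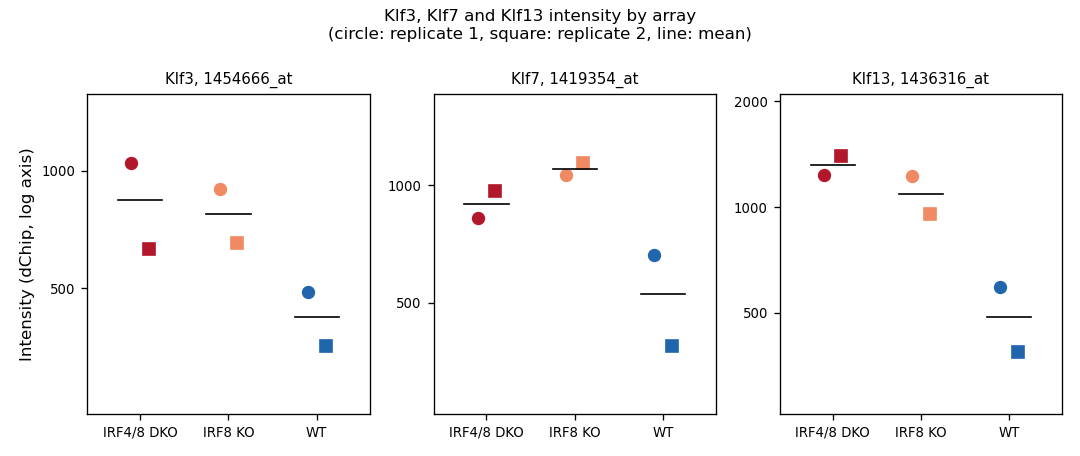
Intensities (dChip values, log axis) of the representative probe sets of Klf3, Klf7 and Klf13 on each array, with IRF4/8 DKO, IRF8 KO and WT from left to right. Circles are replicate 1, squares replicate 2 and lines the mean of a genotype. All 4 knockout arrays lie above both WT arrays for each gene, for Klf13 at 954 or more against 591 or less.

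Over the 6 arrays, which share the same genotypes, the representative probe sets of Klf13 and Klf7 correlated at 0.88, those of Klf13 and Klf3 at 0.87 and those of Klf7 and Klf3 at 0.75. Klf4 ran against them, at −0.87 with Klf7, −0.73 with Klf13 and −0.56 with Klf3, and correlated at 0.68 with Klf2. Klf6 correlated at 0.76 with Klf5 and 0.70 with Klf9. The correlations are descriptions of 6 points in 3 groups and carry no test.

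KLF3 acts through CtBP, and KLF10 and KLF13 through Sin3a. Among 12 cofactors and modifiers of KLFs, all measured, 0 passed the threshold in any comparison, and Nab2 was the only one with an unadjusted limma p under 0.05 in IRF4/8 DKO against WT. Nab2, a co-repressor of EGR factors, had 146 and 642 in IRF4/8 DKO, 83.1 and 52.7 in IRF8 KO, and 76.5 and 17.4 in WT (2.70 ± 0.75, limma adjusted p = 0.265). The coactivator Crebbp had 3169 and 1978 in IRF4/8 DKO, 2810 and 2871 in IRF8 KO, and 2124 and 1796 in WT (adjusted p = 0.565 in both knockout genotypes). Other KLF and Sp family genes were kept for 7 of 16 names, and none had an unadjusted limma p under 0.05 in any comparison. Klf11, a repressor close to KLF10, had 90.8 and 73.9 in IRF4/8 DKO, 94.6 and 104 in IRF8 KO, and 124 and 139 in WT (adjusted p = 0.653 in both knockout genotypes), and Sp1 lay between 1799 and 2285 on all arrays.

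Klf1, the erythroid activator, was dim and did not pass the threshold. It had 45.2 and 48.6 in IRF4/8 DKO, 44.9 and 73.9 in IRF8 KO, and 103 and 55.3 in WT. The IRF4/8 DKO arrays lay below both WT arrays and the IRF8 KO arrays overlapped them, with log2 differences of −0.59 ± 0.45 in IRF4/8 DKO (limma adjusted p = 0.787) and −0.34 ± 0.45 in IRF8 KO (adjusted p = 0.788). Without WT replicate 1, which held the highest value, the second difference was 0.06.

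Of 13 measured genes reported as KLF1 targets, 0 passed the threshold in any comparison, and at an unadjusted limma p under 0.05 there were 5 lower and 0 higher in IRF4/8 DKO against WT and 3 lower and 0 higher in IRF8 KO against WT. By direction, 5 were higher and 8 lower in IRF4/8 DKO against WT, and 2 higher and 11 lower in IRF8 KO against WT. Their median log2 differences were −0.44 and −0.559. Epor, the erythropoietin receptor, had 24.3 and 25.1 in IRF4/8 DKO, 14.0 and 11.8 in IRF8 KO, and 128 and 57.2 in WT (−1.75 ± 0.38 in both knockout genotypes, limma adjusted p = 0.0975). Ank1, which anchors the red cell membrane, had 13.8 and 20.5 in IRF4/8 DKO, 25.4 and 28.9 in IRF8 KO, and 106 and 66.5 in WT (adjusted p = 0.103). Both were lower on all 4 knockout arrays than on both WT arrays, which held for 3 of the 13 genes.

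Of 9 markers of red cell precursors with a kept probe set, 0 were called in IRF4/8 DKO against WT and 0 in IRF8 KO against WT, where 7 and 5 were lower at an unadjusted limma p under 0.05. Of all kept probe sets, 9.05% and 13.5% lay under that limit in either direction. A total of 2 fell and 0 rose in both knockout genotypes against WT: Gata1, the erythroid and megakaryocytic master factor, with 2.64 and 4.98 in IRF4/8 DKO, 13.1 and 1.62 in IRF8 KO, and 282 and 61.1 in WT (limma adjusted p = 0.0475), and the carbonic anhydrase gene Car2, with 142 and 56.1 in IRF4/8 DKO, 553 and 114 in IRF8 KO, and 4116 and 1773 in WT (adjusted p = 0.0381). Gata2, the stem and mast cell factor, had 32.3 and 28.1 in IRF4/8 DKO, 117 and 300 in IRF8 KO, and 1533 and 615 in WT, and fell in IRF4/8 DKO by 4.60 ± 0.59 on the log2 scale (adjusted p = 0.0285). Leaving out either WT array or either IRF4/8 DKO array ended each of these 3 calls, with limma adjusted p-values from 0.0853 to 0.745. All 3 were also lost with no filter (0.0568 to 0.0788), with no variance trend (0.0594 to 0.0894) and with sex as a block (0.0774 to 0.131). The Gata1 call was lost as well with either other pseudocount (0.0576 and 0.0669), quantile normalization (0.0533) and median centring (0.0693), and the Car2 call with median centring (0.055). Summed over the 11 measured erythroid markers, intensity was 6209 and 4443 in IRF4/8 DKO, 4414 and 4029 in IRF8 KO, and 9324 and 7026 in WT. Hba-a1 and Rhd did not pass the filter. Gata1 passed it through the WT arrays alone, since its values on the knockout arrays lay below the 40th percentile. The part of these markers in the Klf1 values was not tested. In the list of 17 kept myeloid transcription factors, Gata2 and Gata1 were the only genes past the threshold.

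Klf6, an early response gene of macrophages, showed no difference past the threshold in any of its 5 probe sets. The representative one, 1447448_s_at, had 982 and 771 in IRF4/8 DKO, 1675 and 1013 in IRF8 KO, and 1154 and 786 in WT. IRF8 KO lay above IRF4/8 DKO without overlap and overlapped WT, with a log2 difference of −0.58 ± 0.39 in IRF4/8 DKO against IRF8 KO (limma adjusted p = 0.701). The probe sets 1433508_at, 1418280_at and 1459718_x_at had log2 differences of −0.13 to 0.45 against WT. The fifth, 1427742_a_at, went against them: it had 61.1 and 131 in IRF4/8 DKO, 15.9 and 13.2 in IRF8 KO, and 28.3 and 130 in WT, so that IRF8 KO was lowest. Its log2 difference was 2.01 ± 0.62 in IRF4/8 DKO against IRF8 KO (limma adjusted p = 0.537), and the pairs of Klf6 probe sets correlated at −0.80 to 0.95.

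Klf10, induced by TGF-beta, had 724 and 470 in IRF4/8 DKO, 473 and 743 in IRF8 KO, and 639 and 471 in WT. The 3 genotypes overlapped, with log2 differences of −0.02 to 0.11 and SEs of 0.38 to 0.43. Of 14 measured genes of the TGF-beta pathway 13 passed the filter and 0 passed the threshold, and at an unadjusted limma p under 0.05 there was 1 lower in IRF4/8 DKO against WT and 2 higher and 1 lower in IRF8 KO against WT. Tgfbr3, the co-receptor betaglycan, had 48.4 and 42.0 in IRF4/8 DKO, 78.6 and 23.1 in IRF8 KO, and 858 and 241 in WT. All 4 knockout arrays were low, and the difference in both knockout genotypes was −3.08 ± 0.58 (limma adjusted p = 0.0659).

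Klf9 had 6 kept probe sets, none past the threshold. The representative one, 1456341_a_at, had 2084 and 987 in IRF4/8 DKO, 2188 and 1367 in IRF8 KO, and 1750 and 1575 in WT, with overlapping genotypes. Of the others, 1428289_at was higher on all 4 knockout arrays, with 474 and 362 in IRF4/8 DKO, 475 and 346 in IRF8 KO, and 235 and 319 in WT (0.56 ± 0.37 in both knockout genotypes, limma adjusted p = 0.625). The remaining 4 ranged from −0.50 to 0.46 in their log2 differences against WT. Among 9 glucocorticoid-responsive genes, all measured, 0 passed the threshold, with 2 higher in IRF4/8 DKO against WT and 1 higher and 1 lower in IRF8 KO against WT at an unadjusted limma p under 0.05. Cebpd, a factor of late granulocyte development, had 1118 and 3251 in IRF4/8 DKO, 1447 and 3530 in IRF8 KO, and 582 and 410 in WT (2.06 ± 0.50 in both knockout genotypes, adjusted p = 0.132). Per1, a clock gene, had 443 and 237 in IRF4/8 DKO, 143 and 86.0 in IRF8 KO, and 112 and 86.2 in WT, and was high in IRF4/8 DKO alone.

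Klf5 was near the median of the arrays. Its representative probe set, 1451739_at, had 45.6 and 33.7 in IRF4/8 DKO, 51.7 and 53.0 in IRF8 KO, and 42.4 and 33.6 in WT. The IRF8 KO arrays were the highest and did not overlap the others, at a log2 difference of 0.38 ± 0.38 against WT (limma adjusted p = 0.712). The other kept probe set, 1430255_at, lay between 20.2 and 47.8 on all arrays and did not correlate with it over the arrays (r = 0).

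Several KLFs are induced within minutes of cell handling together with other immediate early genes. The 15 genes of that class summed to 12190 and 8811 in IRF4/8 DKO, 13070 and 7593 in IRF8 KO, and 14310 and 11190 in WT, with 0 of 14 kept genes past the limma threshold. At an unadjusted limma p under 0.05 there were 1 lower in IRF4/8 DKO against WT and 3 lower in IRF8 KO against WT. In IRF4/8 DKO against IRF8 KO 2 were higher and 0 lower, Hspa1a and Fosb. Hspa1a differed by −2.02 in IRF8 KO against WT (limma adjusted p = 0.142) and by 1.41 in IRF4/8 DKO against IRF8 KO (adjusted p = 0.548). Fosb differed by −1.99 (adjusted p = 0.21) and 1.38 (adjusted p = 0.58) in the same comparisons. Egr1, a member of the class, had 660 and 311 in IRF4/8 DKO, 587 and 252 in IRF8 KO, and 2077 and 740 in WT (adjusted p = 0.310 in both knockout genotypes), and Jun had 1800 and 996 in IRF4/8 DKO, 1880 and 996 in IRF8 KO, and 2683 and 2128 in WT. Fos had 1043 and 564 in IRF4/8 DKO, 1096 and 564 in IRF8 KO, and 355 and 870 in WT, with no common order. The part of these genes in the KLF values was not tested.

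The genes whose representative probe sets were most like those of each member over the 6 arrays were taken by Pearson's r among 13266 genes. The closest to Klf4 were Pus7 (r = 0.997), a pseudouridine synthase, Spsb4 (0.991) and Pros1 (0.989), which codes for protein S. Pus7 had 375 and 325 in IRF4/8 DKO, 413 and 224 in IRF8 KO, and 568 and 631 in WT, the same order of arrays as Klf4 1417394_at. The closest to Klf3 were Irf2 (0.990), an IRF family relative, Aff1 (0.989) and Sema3f (0.986), and Irf2 had 280 and 189 in IRF4/8 DKO, 251 and 167 in IRF8 KO, and 132 and 88.4 in WT. The closest to Klf6 were Ptk7 (0.996), Runx1 (0.988) and Igbp1 (0.988).

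The closest to Klf2 were Bpifa3 (r = 0.997), Sltm (0.993) and Efcab7 (0.992), those to Klf13 were Dhrs3 (0.988), Furin (0.985) and Oxr1 (0.982), and those to Klf7 were B3glct (0.997), Acaa1a (0.996) and Cabp5 (0.989). For Klf1 they were Lhfp (0.981), Acss2 (0.980) and Mdga1 (0.976), for Klf5 Bex6 (0.995), Dclk2 (0.992) and Zfand6 (0.992), for Klf9 Rnf20 (0.999), 1700001C19Rik (0.997) and Tnpo1 (0.996), and for Klf10 Lpin3 (0.991), Mff (0.986) and 4933408J17Rik (0.982). Between 57 and 256 genes per member had an r above 0.9.

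**Figure D5:**
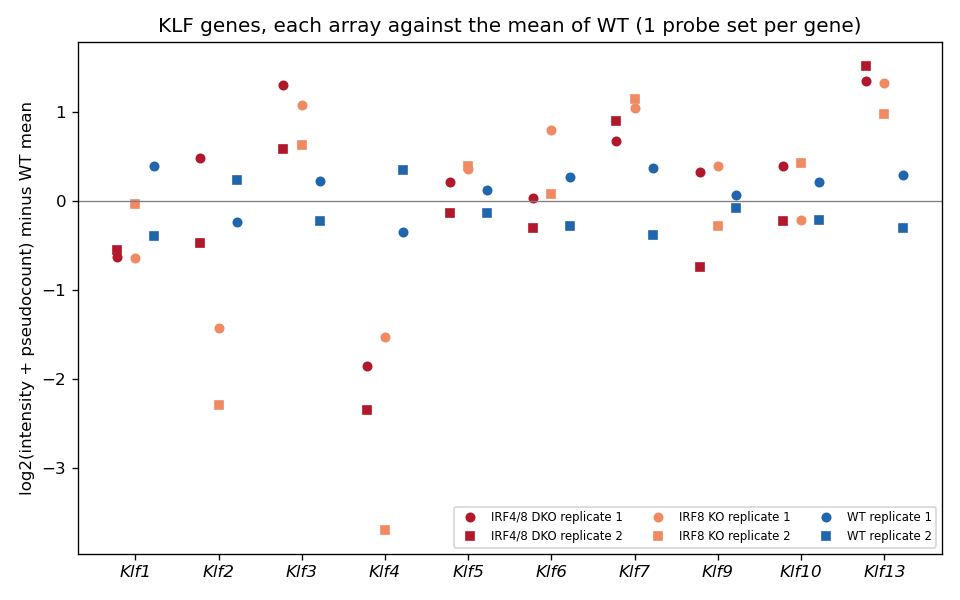
Each array's log2(intensity + 10.5) minus the WT mean for the representative probe set of each of the 10 KLF genes, with IRF4/8 DKO, IRF8 KO and WT from left to right within a gene. Circles are replicate 1 and squares replicate 2. Klf4 lies below WT on all 4 knockout arrays and Klf2 on the IRF8 KO arrays, Klf3, Klf7 and Klf13 lie above WT on all 4, and every array of Klf1, Klf5, Klf6, Klf9 and Klf10 lies less than 1 log2 unit from the WT mean.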

How the data were processed

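RNA from sorted GMPs of 6 mice was hybridised to Affymetrix Mouse Genome 430 2.0 arrays. The deposited values are linear intensities per probe set, computed by the authors with dChip 1.3 from a model of perfect match minus mismatch signal, per the series' design text. The sources used here do not state how arrays were scaled or how low signal was handled. Values ran from 0.69 to 16563.28, none at or below 0. Array annotation gave 34945 probe sets 1 gene symbol, 932 several and 9160 none, and no member was named from a probe set with several.

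Values were taken as log2(intensity + 10.5), the pseudocount being the 25th percentile of all values. Probe sets above the 40th percentile of their array on at least 2 of 6 arrays were kept (29783, with 15254 left out). limma 3.58.1 in R 4.3.3 (lmFit, eBayes with trend) was fitted over all 6 arrays with a coefficient per genotype and no covariate, leaving 3 residual and 5.841 prior degrees of freedom, and was tested on simulated data. Tables were handled in Python 3.11.15 with pandas 2.3.3. The small number of arrays limits the precision.

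The text names all members and their probe sets, Irf4 and Irf8, part of the list genes past the threshold or among the 3 with the lowest p of a list, and the 3 genes most like each member. Other genes past the threshold, such as Prg2, Ms4a2, Cavin2, Mecom and Angpt1, are not described, so the named list genes are not complete. Kit, Elane and Fos were chosen after their values were seen and are given as levels only. Members and lists were chosen with earlier results of these data known. Alternatives changed pseudocount, filter, normalization, variance model, samples in the fit, covariates, representative probe set and arrays left out. For list genes they were added after seeing the data. Replicate numbers were not used to pair the arrays in the main fit. Deviations of arrays with the same number correlated at 0.211 (IRF4/8 DKO with IRF8 KO), 0.187 (IRF4/8 DKO with WT) and 0.0411 (IRF8 KO with WT), all positive. A replicate block raised the calls over all probe sets from 89 to 216 in IRF4/8 DKO against WT and from 9 to 209 in IRF8 KO against WT. The representative probe sets of Klf3, Klf6 and Klf9 were higher in replicate 1 than in replicate 2 in every genotype. Whether arrays of the same number share a batch was not tested.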

Additional observations from a re-analysis of the deposited data

Results flagged for a closer look

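The representative probe sets of Klf2, Klf3, Klf4 and Klf9 had differences of opposite sign between the male arrays and between the female arrays. Each sex had 1 array per genotype and ages differed, so these are differences between single arrays and the difference between the sexes was not tested. In IRF8 KO replicate 1 was the female, while in the other genotypes it was the male. Differences from IRF8 KO within a sex therefore set replicate 1 against replicate 2, and sex and replicate number cannot be told apart there. For Klf2 in IRF4/8 DKO against WT the log2 difference was 0.73 between the male arrays and −0.7 between the female arrays. For Klf3 1454666_at in IRF4/8 DKO against IRF8 KO it was 0.67 between the male arrays and −0.5 between the female arrays. For Klf4 1417394_at in IRF4/8 DKO against IRF8 KO it was 1.85 between the male arrays and −0.83 between the female arrays. For Klf9 1456341_a_at in IRF4/8 DKO against IRF8 KO it was 0.6 between the male arrays and −1.14 between the female arrays. A size of at least 0.5 in each sex was asked for, and only the probe set that represents each gene was examined.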

How the results depend on the processing

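The number of member probe sets past the threshold moved between 0 and 3. In IRF8 KO against WT it was 0, and 1 with the pseudocount at 3.9, with quantile normalization, with age as a covariate and with the replicate block, and 0 to 3 when 1 array was left out. In IRF4/8 DKO against WT it was 0, and 1 with only the genotypes compared, and 0 to 1 when 1 array was left out. In IRF4/8 DKO against IRF8 KO it was 0 in all alternatives run, while calls over all probe sets there numbered 0, and 200 when the first IRF8 KO array was left out, 14 when the other was, 2 with age as a covariate and 1 with the replicate block. In both knockout genotypes against WT it was 1, and 0 with no filter, with no variance trend and with sex as a block, 1 with the replicate block, and 0 to 2 when 1 array was left out; a fit of only the genotypes compared is the same fit there. Over all probe sets the calls numbered 89 in IRF4/8 DKO against WT (0 with sex as a block, 476 with only the genotypes compared, 0 to 484 with 1 array left out) and 9 in IRF8 KO against WT (2 with sex as a block, 209 with the replicate block, 0 to 1090 with 1 array left out). They numbered 179 in both knockout genotypes (8 with sex as a block, 391 with the replicate block, 0 to 1020 with 1 array left out). Median centring changed the split of calls in IRF4/8 DKO against WT to 19 higher and 26 lower, from 27 and 62. The sign of small differences turned as follows. In IRF8 KO against WT, Klf9 was −0.08 with quantile normalization. In IRF4/8 DKO against WT, Klf6 was 0.09 and Klf9 0.01 with median centring, and Klf5 was −0.13, Klf6 0.07 and Klf9 0.13 as the mean over a gene's probe sets. In IRF4/8 DKO against IRF8 KO, Klf10 was 0.06 with median centring, and the mean over probe sets gave Klf6 0.04, Klf7 0.54, Klf9 0.04 and Klf13 −0.01. In both knockout genotypes Klf9 was 0.1 with median centring and 0.11 as the mean over probe sets, and Klf5 was −0.03 as that mean. With 1 array left out, IRF8 KO against WT ranged from −0.73 to 0.06 for Klf1, −0.28 to 0.4 for Klf9 and −0.21 to 0.43 for Klf10. IRF4/8 DKO against WT ranged from −0.46 to 0.49 for Klf2, −0.13 to 0.22 for Klf5, −0.4 to 0.14 for Klf6, −0.74 to 0.33 for Klf9 and −0.22 to 0.39 for Klf10. IRF4/8 DKO against IRF8 KO ranged from −0.56 to 0.05 for Klf1, −0.27 to 0.45 for Klf3, −0.58 to 1.6 for Klf4, −0.8 to 0.27 for Klf9 and −0.34 to 0.3 for Klf10. Both knockout genotypes ranged from −0.12 to 0.43 for Klf6, −0.34 to 0.19 for Klf9 and −0.12 to 0.31 for Klf10. Against WT, Klf3, Klf4, Klf7 and Klf13 kept their direction in all alternatives run. The causes of these changes were not tested. Where an array was left out, the lone array of its genotype was assumed to vary like the others. Values below the 40th percentile of the array, among them those of the second Klf4 probe set in IRF8 KO, are limited by signal over background.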

Other observations

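Some markers of other cell types also passed the threshold. Of 9 stem and multipotent progenitor markers with a kept probe set, 3 fell in both knockout genotypes against WT by limma, among them Tek, a receptor of stem cells, with 5.77 and 4.12 in IRF4/8 DKO, 8.10 and 5.75 in IRF8 KO, and 250 and 152 in WT (adjusted p = 0.0108). Tek passed the filter through the WT arrays alone. Of 9 eosinophil, basophil and mast cell markers 3 fell, among them the mast cell protease gene Cpa3, with 11.9 and 10.9 in IRF4/8 DKO, 68.9 and 49.5 in IRF8 KO, and 1526 and 537 in WT (limma adjusted p = 0.0127). Of 6 megakaryocyte markers 1 fell, Pf4, which codes for platelet factor 4, with 9.85 and 11.2 in IRF4/8 DKO, 798 and 394 in IRF8 KO, and 2516 and 590 in WT (limma adjusted p = 0.0441). Taken singly, Pf4 was called in IRF4/8 DKO against WT (−5.87, limma adjusted p = 0.0261). In IRF8 KO it overlapped WT and was not called (−1.11, adjusted p = 0.521).

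Of 11 neutrophil maturation markers 2 rose in both knockout genotypes: the collagenase gene Mmp8, with 182 and 595 in IRF4/8 DKO, 150 and 273 in IRF8 KO, and 11.6 and 10.2 in WT (limma adjusted p = 0.0307), and Chil3 (adjusted p = 0.0474). Mmp8 passed the filter through the knockout arrays alone. Of 6 dendritic cell markers 1 fell, Cd74, and of 5 lymphoid markers 1 rose, Vpreb1. In the 12 markers of the gate and the 5 kept markers of excluded lineages, 0 were called by limma, with 3 higher and 1 lower, and 1 higher and 0 lower, at an unadjusted p under 0.05. These counts were not recomputed under the alternatives, and the part of such cells in the KLF values was not tested.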
